A study of Mus musculus with 45 samples.

Results

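A group of 571 genes lost transcript steadily while action potential (AP) firing went on in mouse hippocampal primary neurons. They were chosen from the measured values: protein-coding genes with a mean of at least 5 CPM (the gene's count per 1000000 counts of the library) in the control, a mean CPM that was lower at 1 h than at 0.5 h and lower still at 2 h of bicuculline, and a mean at 2 h of at most 0.70 times the control mean. Of 54532 genes in the counts table, 10628 were protein-coding with a control mean of at least 5 CPM, and these are called the eligible genes below. The members were thus 571 of 10628 genes. Of the 583 eligible genes with a ratio of 0.70 or less, 12 did not have the required order of means.

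The cultures came from newborn C57BL/6N mice, were grown with B27 and at first 1% rat serum, received AraC (an inhibitor of cell division) on day 3 and were treated on day 10 or 11 in vitro according to the labels. The 45 libraries were 9 conditions in each of 5 culture preparations (replicate numbers 1, 3, 6, 7 and 8), and a library was 1 culture of a preparation. Bicuculline (Bic, 50 µM) blocks GABA type A receptors and so induces AP firing. It was given for 0.5, 1 or 2 h, and control cultures received none. The interventions were added on top of Bic. In the short protocol (SP) they were added after 0.5 h and left for 0.5 h, and in the long protocol (LP) after 1 h and left for 1 h. They were tetrodotoxin (TTX, 1 µM), which stops APs, and TTX/NMDA, that is TTX plus N-methyl-D-aspartate (30 µM), which also reaches NMDA receptors outside synapses. A further LP group received TBOA (50 µM), a blocker of glutamate transporters, without TTX. No measure of firing in this group is part of these data. The comparison of TTX/NMDA with TTX is called the active effect.

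Transcript levels reflect synthesis and decay together. A transcript that decays quickly falls soon after its synthesis slows, whereas a long-lived one hardly moves within 2 h. Members of the large C2H2 zinc finger family, most of which bind DNA and many of which repress transcription, are known for short-lived transcripts in many cell types. Regulators of transcription and RNA turnover share this property with them more often than structural, metabolic or ribosomal proteins do.

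Library depth ranged from 11316580 to 81129276 counts on genes with a median of 26239614, and the lowest count of any member in any library was 13. The immediate early genes followed the labels, and the summed CPM of 16 immediate early genes was 884 to 1174 in the control libraries and 11585 to 14966 after 2 h Bic. Pyramidal neuron markers summed to 2762 to 3632 CPM in the control and 2859 to 3374 CPM after 2 h Bic, and astrocyte markers to 1284 to 1783 CPM and 1279 to 1960 CPM. None of the 9 cell type marker lists held a member. In bulk RNA, fewer cells of a type and less RNA per cell cannot be told apart.

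The members lost little in the first 0.5 h and most in the second hour. Their median ratio to the control was 0.970 at 0.5 h, 0.858 at 1 h and 0.624 at 2 h. At 0.5 h, 186 members still had a mean above the control. The step from 1 to 2 h was the largest for 549 of 571 members, with a median of -0.48 on the log2 scale, against -0.18 for the step from 0.5 to 1 h and -0.04 for the step from control to 0.5 h. At 2 h, 79 members were at 0.50 of the control level or lower and 348 lay between 0.60 and 0.70. These values chose the members and are given as a description. The last members inside the limit were Tmem138 and Fam241a, both with a ratio of 0.6997, and the first genes outside it were Mrpl47 at 0.70001 and Guf1 at 0.7003. On the other limit, Plk4 and Ybey (5.01 CPM each) were inside, and Zfp658 (4.97 CPM) and Cep57l1 (4.97 CPM) were outside.

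The decrease was shared by the preparations. At 2 h, 567 members were below the control in 5 of 5 preparations, as were 36.7% of the eligible genes, and the other 4 members (Tent2, Mospd1, Zbtb49 and AW146154) in 4 of 5. In 537 members all 2 h libraries lay below all control libraries, which was the case for 17.8% of the eligible genes. The counts of 567 and 537 come from the libraries that chose the members, so they are a description. To see the decrease in libraries that had no part in the choice, the rule was applied to 4 preparations and read in the fifth. This chose 521 to 632 genes, and in the preparation left out 98.1% to 99.8% of them were lower after 2 h Bic than in the control, with a median ratio of 0.575 to 0.676. A ratio of 0.70 or less was found there for 57.8% to 80.6%. At 0.5 h the left-out median ratio was 0.932 to 1.03, on both sides of the control.

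The size of the decrease depended on how counts were scaled. Expressed in CPM, the median eligible gene was itself at 0.934 of the control after 2 h Bic, a shift of -0.10 on the log2 scale. With TMM scaling, which centres most genes, that median was 1.00, the members' median ratio was 0.669, and 349 genes met the rule. All 349 were among the 571 members, and all 571 members stayed below the control on that scale.

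**Figure D1:**
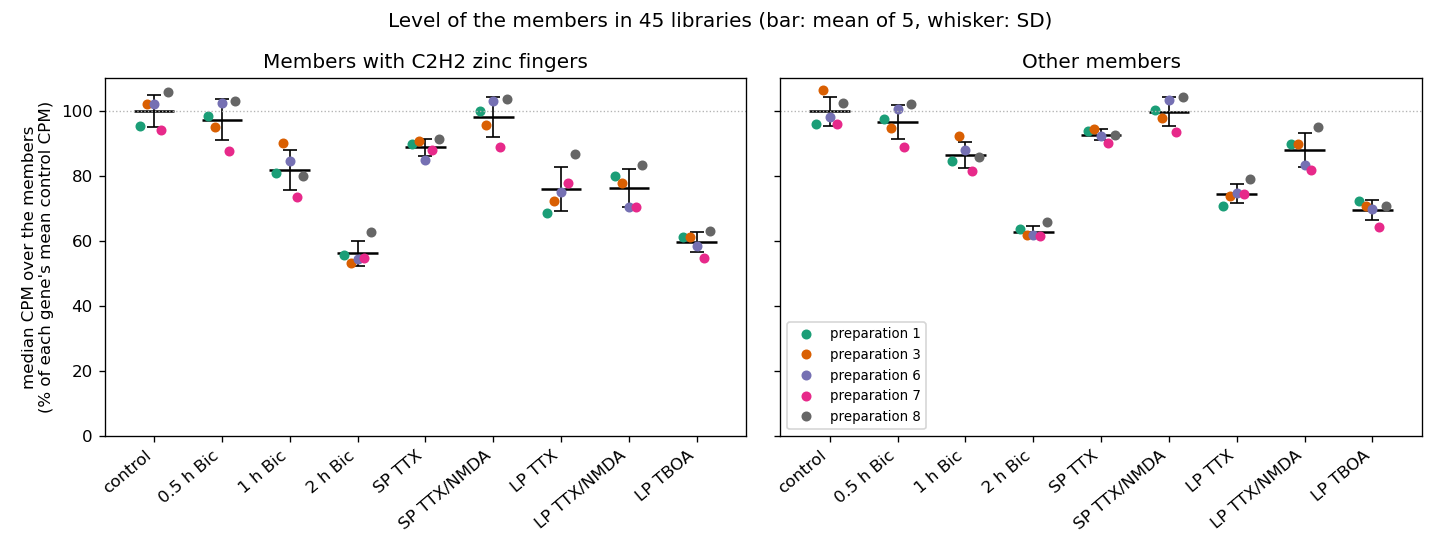
Median CPM over the members in each of the 45 libraries, as a percentage of each gene's mean control CPM (y axis), by condition (x axis). Left, the 144 members with at least 3 C2H2 zinc fingers. Right, the 427 other members. Points are libraries coloured by preparation, bars are means of 5 and whiskers are SD. After 2 h Bic the means were 56.2% and 62.9%.

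The members were mostly low-abundance transcripts. Their median control level was 15.1 CPM, against 41.1 CPM for the eligible genes, and 354 of them had fewer than 20 CPM. Among the most abundant were Ogfrl1, Pank3 (a pantothenate kinase of coenzyme A synthesis), Ankrd12 (a nuclear coregulator) and Klhl9 (an adaptor of Cullin ubiquitin ligases), with control means of 168, 156, 140 and 129 CPM and ratios of 0.659, 0.638, 0.690 and 0.646. In Ogfrl1 (chr1:23366424-23397772, minus strand), the control libraries had 154, 197, 163, 149 and 174 CPM and the 2 h libraries 117, 105, 112, 106 and 112 CPM. The groups did not overlap.

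Zinc finger genes led the decrease. Of the 12 members with the lowest ratios, 9 encoded C2H2 zinc fingers: Zfp712 (0.202), Zfp39 (0.280), Zkscan4 (0.301), Zfp786 (0.325), Zfp729b (0.326), Zfp11 (0.336), Zfp128 (0.340), Zfp759 (0.342) and 2810021J22Rik (0.363). The others were Etaa1 (0.328), which activates the ATR checkpoint kinase at stalled replication forks, Ttc30b (0.347), a subunit of the intraflagellar transport machinery of cilia, and Map10 (0.356), a microtubule-associated protein.

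Zfp712 (chr13:67038596-67061170, minus strand), with 20 predicted C2H2 fingers, had 4.51, 7.18, 6.13, 5.30 and 6.07 CPM in the control libraries of preparations 1, 3, 6, 7 and 8. It had 6.08, 3.84, 4.92, 3.55 and 5.47 CPM at 0.5 h, 2.61, 3.84, 3.57, 2.32 and 3.33 CPM at 1 h and 1.17, 1.07, 0.984, 0.817 and 1.85 CPM at 2 h. The highest 2 h library was below the lowest control library. Etaa1 (chr11, minus strand) had 6.36, 11.0, 6.37, 7.22 and 7.15 CPM in the control and 2.18, 2.44, 2.65, 1.82 and 3.43 CPM at 2 h. Its control library of preparation 3 stood above the other 4, and all 2 h libraries were below all control libraries. Ttc30b, a gene of a single exon on chromosome 2, had 11.4, 15.4, 10.4, 10.8 and 12.4 CPM in the control and 4.24, 4.84, 3.77, 4.03 and 4.03 CPM at 2 h, again without overlap.

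In all, 144 members encoded at least 3 C2H2 fingers (the pattern Cys, 2 residues, Cys, 12 residues, His, 3 to 5 residues, His) in their longest coding sequence. They made up 25.2% of the members and 2.04% of the eligible genes that were not members. Seen from the family, 41.3% of the 349 eligible genes with at least 3 fingers and 49.5% of the 222 with at least 8 were members. Of 263 eligible genes with a Zfp symbol, 115 were members, with 8 of 18 Zkscan and Zscan genes and 11 of 36 Zbtb genes. In contrast, 5 of 192 Slc transporter genes, 1 of 60 Kcn potassium channel genes, 0 of 59 protocadherin (Pcdh) genes and 0 of 89 genes with Rpl or Rps symbols were members. The zinc finger members had a median ratio of 0.575 and the other members 0.642. These classes were compared after the values were seen and are given as counts. Many zinc finger genes have near-identical copies, such as Zfp729a and Zfp729b or Zfp874a and Zfp874b, and reads that mapped to several places were not counted, so levels of single members of such pairs are uncertain.

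**Figure D2:**
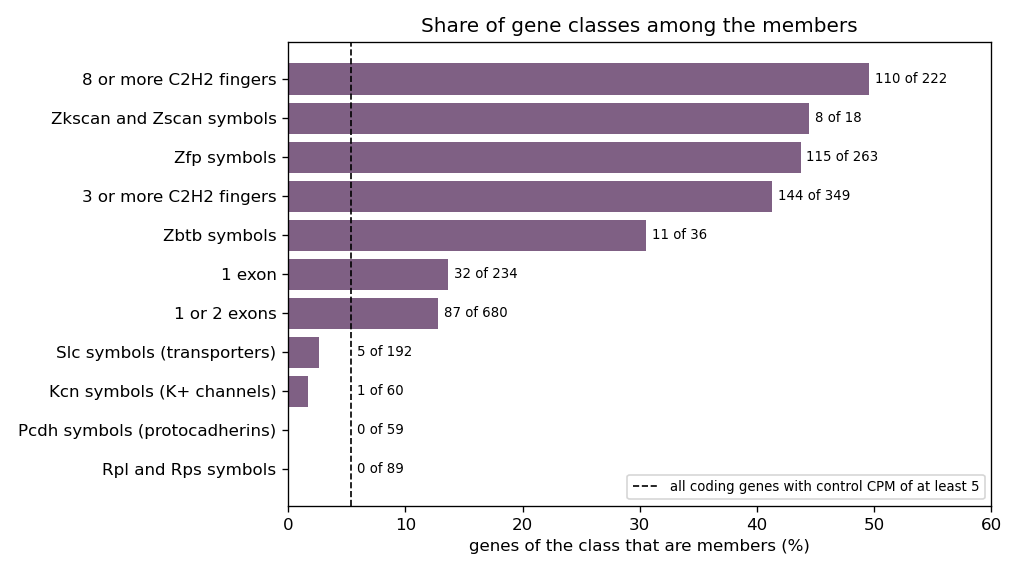
Share of each gene class that belonged to the 571 members (x axis, percent of the eligible genes of the class), with the counts beside the bars. The dashed line marks the 571 of 10628 eligible genes. Classes with C2H2 fingers reached 30.6% to 49.5%.

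The zinc finger members also lay close together in the genome: 90 of 144 had another zinc finger member within 200 kb, against 82 of the 427 other members with another such member. The zinc finger genes that were not members were not counted in this way, so closeness cannot be called particular to the members. Chromosome 7 held 58 members, of which 42 were zinc finger members. Of the chromosomes that held a member, chromosome 13 had the largest share of its eligible genes among the members with 8.22%, and the X chromosome the smallest with 1.63%.

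The members had compact genes. They had a median of 5 exons, against 10 for the eligible genes that were not members, and 5.60% of them had 1 exon, against 2.01%. The median gene spanned 19328 bases against 28815, although its transcript was longer (3534 against 3218 bases). The share of G or C at the last position of codons was 52.2% (median) against 61.0%. The 3′ UTR had a median of 1532 bases against 1090, a GC content of 39.9% against 44.9%, and 1.94 against 1.27 copies of ATTTA per kilobase. The 427 members without zinc fingers had the same tendencies, with medians of 6 exons, 53.2% G or C at last codon positions and 39.9% GC in the 3′ UTR. Among genes of a like control level (8.87 to 27 CPM), the medians of the 285 members and the 2683 others were 5 and 8 exons, 52.9% and 61.2% at last codon positions and 39.9% and 44.6% in the 3′ UTR. No test was made of these differences, because the features of one gene family are not independent.

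**Figure D3:**
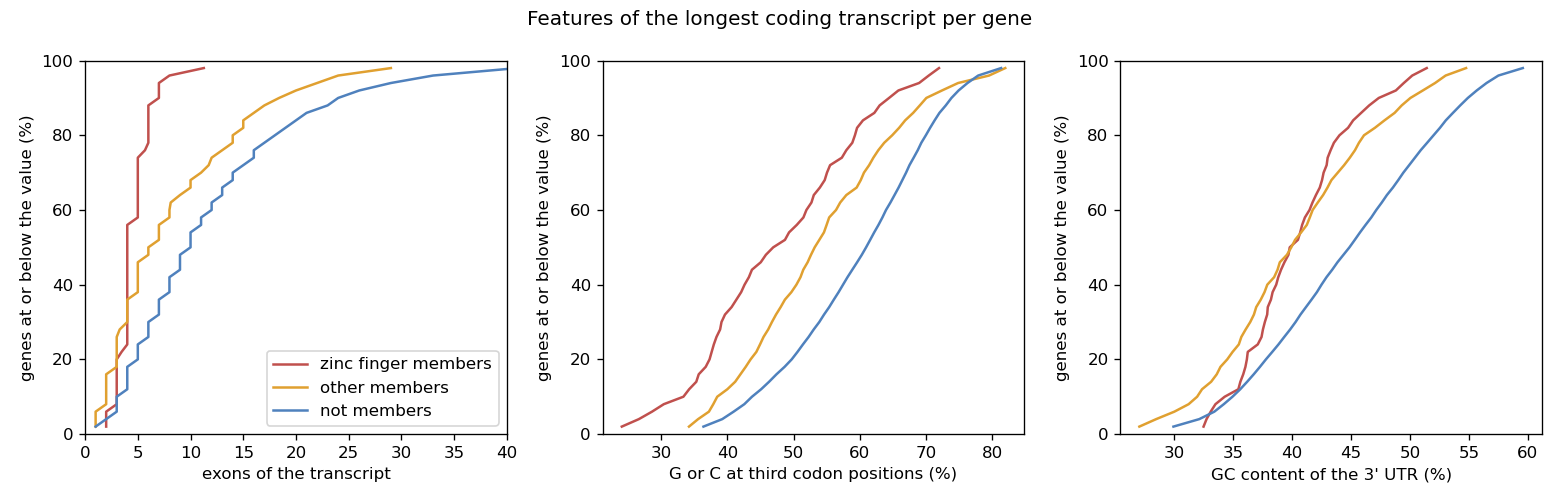
Cumulative distributions of the number of exons, the share of G or C at last codon positions and the GC content of the 3′ UTR (x axes) for zinc finger members, other members and eligible genes that were not members (y axis, percent of genes at or below the value). Over most of their range both member curves lie to the left of the others, with medians of 4, 6 and 10 exons, and they cross at the ends of some curves.

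Promoter windows of RefSeq (build GRCm38.p6, 250 bases before to 50 bases after the start) were found for 468 members by symbol, with 552 windows. The letters CCGGAAG, the core recognised by ETS factors such as the member Gabpa, were present on either strand in 23% of the members' windows, 17.5% of those of eligible genes and 8.86% of all 32851 windows. The letters ACTACAA, the start of an element bound by ZNF143, whose mouse gene Zfp143 is a member, were in 7.25%, 4.12% and 3.24%. The cyclic AMP response element TGACGTCA, the site of the member Creb1, was in 1.99%, 3.14% and 1.79%, the GC box GGGCGG in 57.8%, 64.5% and 35.7%, and the TATA box TATAAA in 7.25%, 6.59% and 13.6%. CCAAT was in 40.04%, 37.2% and 37.4% and the E box CACGTG in 7.97%, 10.2% and 7.15%. These shares describe letters in a window. Shown, to set the letters in their context, are a window each of the 3 members with the lowest ratios that hold ACTACAA, and of Zkscan4, the member with the lowest ratio that holds CCGGAAG. Capitals mark these letters or their reverse complement, read 5′ to 3′ on the strand of the gene.
Zfp128 (chr7:12880928-12881227, plus strand): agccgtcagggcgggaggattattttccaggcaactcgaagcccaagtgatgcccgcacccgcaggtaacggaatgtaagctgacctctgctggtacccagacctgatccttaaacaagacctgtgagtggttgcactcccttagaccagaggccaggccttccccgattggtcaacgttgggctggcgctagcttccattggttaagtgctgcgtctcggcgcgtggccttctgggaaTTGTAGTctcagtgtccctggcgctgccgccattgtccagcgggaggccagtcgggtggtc
Kbtbd7 (chr14:79426261-79426560, plus strand): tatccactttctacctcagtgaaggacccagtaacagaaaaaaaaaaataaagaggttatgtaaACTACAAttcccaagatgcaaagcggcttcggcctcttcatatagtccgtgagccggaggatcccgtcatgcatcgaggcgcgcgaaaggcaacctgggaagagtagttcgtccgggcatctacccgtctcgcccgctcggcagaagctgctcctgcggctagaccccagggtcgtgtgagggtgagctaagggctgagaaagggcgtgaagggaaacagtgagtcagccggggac
Zscan2 (chr7:80861858-80862157, plus strand): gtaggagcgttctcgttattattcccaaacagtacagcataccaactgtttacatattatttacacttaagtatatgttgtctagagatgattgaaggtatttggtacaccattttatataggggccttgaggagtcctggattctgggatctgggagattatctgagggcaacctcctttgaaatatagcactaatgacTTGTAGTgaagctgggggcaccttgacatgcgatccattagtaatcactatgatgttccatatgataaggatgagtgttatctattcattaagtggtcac
Zkscan4 (chr13:21478599-21478898, plus strand): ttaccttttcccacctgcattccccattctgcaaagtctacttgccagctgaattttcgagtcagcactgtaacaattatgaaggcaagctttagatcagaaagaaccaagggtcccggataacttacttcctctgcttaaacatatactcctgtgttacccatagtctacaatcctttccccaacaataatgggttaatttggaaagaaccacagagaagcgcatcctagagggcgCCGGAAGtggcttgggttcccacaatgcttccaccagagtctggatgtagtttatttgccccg
The letters in capitals began 11, 186, 50 and 13 bases before the annotated start.

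Beyond the zinc finger genes, the members covered several nuclear and regulatory roles, grouped here after the values were seen. The eligible genes of these roles were not counted, so no share of members can be given for them. Their ratios are at most 0.70 by the rule. Among 19 genes of ribosome biogenesis the median ratio was 0.656. Twistnb, a subunit of RNA polymerase I, went from 11.9 ± 1.66 CPM (SD, n = 5) in the control to 5.96 ± 1.17 CPM at 2 h, and Exosc3, a subunit of the RNA exosome, from 5.40 ± 0.684 to 2.77 ± 0.198 CPM. In 12 genes of tRNA modification and processing the median was 0.645, with Trmt12 (an enzyme of wybutosine synthesis) at 0.514 and the pseudouridine synthases Pus7 and Pus10 at 0.595 and 0.655. In 18 genes of the transcription machinery and splicing it was 0.608, with Gtf2a1, a subunit of the general factor TFIIA, at 0.495, Dbr1, the lariat debranching enzyme, at 0.498, and the Mediator subunits Med17 and Med11 at 0.609 and 0.657.

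Genes of mRNA tailing, methylation and turnover (10 members) had a median ratio of 0.618. The poly(A) polymerase Papolg was lowest at 0.409, from 18.4 ± 1.22 CPM in the control to 7.53 ± 0.993 CPM at 2 h, followed by the decapping cofactor Dcp1a at 0.583 and the N6-methyladenosine reader Ythdf2 at 0.608. In 13 genes of the DNA damage response (median 0.607), Etaa1 was followed by Rad17 (0.478), a loader of the checkpoint clamp, and Lig4 (0.509), the ligase of end joining. In 16 genes of mitochondrial function (median 0.658), Tefm, an elongation factor of mitochondrial transcription, stood at 0.497 and Tfam, which packages mitochondrial DNA, at 0.655. In 10 genes of cilium and centrosome (median 0.627), Ttc30b and Ttc26, both of intraflagellar transport, were at 0.347 and 0.430.

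Genes of neuronal signalling were among the members too. Creb1, which encodes the activity-regulated transcription factor CREB, had 45.3, 49.4, 52.9, 46.3 and 54.7 CPM in the control, 42.8, 48.5, 49.4, 39 and 37.2 CPM at 1 h and 29.6, 30.9, 30.7, 27 and 26.2 CPM at 2 h. The 1 h libraries overlapped the controls and the 2 h libraries did not. Prkaa1, a catalytic subunit of AMP-activated kinase, had a ratio of 0.508, and Nr3c1, the glucocorticoid receptor, 0.672. Among 12 receptors, channels and synaptic proteins (median 0.627), Kcnv1, a modulatory potassium channel subunit, stood at 0.510, the somatostatin receptor Sstr3 at 0.517, Nlgn3, a postsynaptic adhesion protein, at 0.619, Inhbb, the activin beta B subunit, at 0.630 and the metabotropic glutamate receptor Grm7 at 0.694.

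Of 33 lists of genes by pathway, family or cell type, 13 held a member. The share of members among the eligible genes can be compared with 571 of 10628 overall. The zinc finger list (Zfp symbols) held 115 of its 263 eligible genes (43.7%) and the list of BTB, Kelch and F-box genes 20 of 124 (16.1%). Of these 20, 11 were the Zbtb genes already counted above with the zinc finger classes. They included the lowest of the list, Zbtb8b (0.434), Zbtb6 (0.466), Zbtb8a (0.506) and Zbtb44 (0.605). The share of this list is therefore not separate from that of the zinc finger classes. Orphan G protein-coupled receptors and related genes held 4 of 35 (11.4%), namely Gpr75 at 0.553, Gprin2 at 0.623, Gpr63 at 0.678 and Gpr61 at 0.680. Histone and DNA methylation enzymes held 3 of 47 (6.38%), a share near the overall one: Prdm15 at 0.566, Kdm4c at 0.674 and Setd2 at 0.677. The decapping and AU-rich element list held 2 of 30, among them Dcp1a, and the list of SOX, POU, LIM and homeodomain factors 2 of 34, Pou2f1 (0.638) and Lhx9 (0.662). Lists with a single member included those of the MAPK phosphatase Dusp7 (0.552, 1 of 21), the Hedgehog repressor Sufu (0.636, 1 of 7), the Wnt receptor Fzd7 (0.670, 1 of 23), the bHLH factor Mycl (0.669, 1 of 28), the potassium channel subunit Kcnv1 (1 of 56) and the glutamate receptor Grm7 (1 of 24).

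With the interventions added halfway, the median member stood between the control and 2 h Bic. As a description, since 2 h Bic had a part in the choice, the median member was at 0.751 of the control in LP TTX, 0.854 in LP TTX/NMDA and 0.683 in LP TBOA, and the mean was above that of 2 h Bic for 529 of 571 members in LP TTX, 549 in LP TTX/NMDA and 475 in LP TBOA. In the preparations left out of the choice, the median ratio to 2 h Bic was 1.11 to 1.25 in LP TTX, 1.35 to 1.43 in LP TTX/NMDA and 1.02 to 1.14 in LP TBOA. Compared with 1 h Bic, the point at which TTX was added, LP TTX had a median ratio of 0.784 to 0.953 in those preparations, so the median member was lower an hour later. In the SP, the median member was at 0.919 of the control with TTX and 0.999 with TTX/NMDA. The median eligible gene also moved in CPM between these groups, from 0.987 to 1.03 of its control. With TMM scaling the median member was at 0.936 with TTX and 0.975 with TTX/NMDA.

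Some members went back further than others. In LP TTX, 15 members had a mean at or above the control, among them Ccnj, Dyrk3, Sprtn, Dcp1a, Isg20l2, Sirt1 and Zfp37. In contrast, 42 members were at or below their 2 h Bic mean, led by Sh3bp4, an endocytic adaptor, Dact2 and Zfp775. In LP TBOA, which had no TTX, no member reached 0.90 of the control and 341 were at 0.70 or less, of which 121 were zinc finger members. In LP TTX, 190 were at 0.70 or less and 43 of those were zinc finger members.

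TBOA and TTX in the LP were compared in libraries that had no part in the choice of members, although the same 5 preparations provided them. With TBOA, 180 members (31.5%) were lower than with TTX and 3 (0.525%) were higher. Among the eligible genes 8.53% were lower and 1.45% higher, and among all 32418 genes tested 3.50% and 0.759%. The median log2 fold change was -0.16 over the members, -0.01 over the eligible genes and 0.02 over all genes tested. Without any 1 preparation, 143 to 197 members were lower. Without preparation 7, whose TBOA library had the lowest level of the members, 143 were lower and 2 higher.

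The lower levels with TBOA were most frequent among the zinc finger members. Of these, 83 of 144 (57.6%) were lower and 0 were higher (3 with an unadjusted p under 0.05), with a median log2 fold change of -0.43. Among the other members 97 of 427 (22.7%) were lower, with a median of -0.12, and among 205 zinc finger genes that were eligible but not members 48 (23.4%) were lower, with a median of -0.10. DESeq2 called 194 members lower and 6 higher. A fit with the preparation as a block, over genes passing edgeR's filterByExpr (the paired fit), called 204 lower and 10 higher, and 0 of the zinc finger members higher. Over all 387 genes tested with a Zfp symbol, members or not, 122 were lower and 7 higher with TBOA. Of 10 pyramidal neuron markers 4 were lower with TBOA, and of 15 astrocyte markers 1 was higher. Their summed levels were 2786 to 3407 CPM with TTX and 2626 to 3182 CPM with TBOA for the former, and 1258 to 2008 CPM and 1657 to 2183 CPM for the latter. Their part in the result was not tested.

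Dyrk3, a kinase that dissolves stress granules, and Ccnj, cyclin J, had the smallest p-values. Dyrk3 had 19, 16.6, 14.9, 17.6 and 17 CPM with TTX and 5.10, 5.72, 5.32, 5.72 and 4.79 CPM with TBOA, a log2 fold change of -1.70 ± 0.10 (SE, adjusted p = 5.84e-16). Its control level was 12.9 ± 0.640 CPM (SD, n = 5) and its 2 h Bic level 7.57 ± 1.66 CPM, so the TTX libraries were above all controls and the TBOA libraries below all 2 h libraries. Ccnj had 13.6, 15.1, 11.2, 16.4 and 16.1 CPM with TTX and 4.72, 4.18, 5.32, 4.74 and 4.85 CPM with TBOA (log2 fold change -1.65 ± 0.11, adjusted p = 3.45e-14). Its controls were 8.08 to 9.67 CPM, below every TTX library.

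Sprtn, a protease of DNA-protein crosslinks, was lower with TBOA by a log2 fold change of -1.0 (adjusted p = 3.26e-11) and Yod1, a deubiquitinase, by -1.14 (adjusted p = 2.32e-10). The zinc finger gene Zfp748 (chr13, 23 fingers) had 6.44, 7.27, 7.66, 8.04 and 8.53 CPM with TTX and 3.12, 2.34, 3.23, 2.64 and 2.92 CPM with TBOA, a log2 fold change of -1.45 ± 0.13 (adjusted p = 6.42e-11). Zfp786 had 4.17, 3.60, 4.18, 4.25 and 5.29 CPM with TTX and 1.55, 1.07, 1.13, 1.83 and 2.05 CPM with TBOA (-1.48 ± 0.16, adjusted p = 2.19e-08). For neither gene did the groups overlap.

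Of the members with the deepest decrease, Zfp39 (-0.99), Zkscan4 (-0.74), Zfp712 (-0.82), Zfp11 (-1.33), Zfp128 (-1.24) and Map10 (-0.51) were also lower with TBOA than with TTX. Zfp729b (log2 fold change -0.44, adjusted p = 0.052), Zfp759 (-0.21), 2810021J22Rik (-0.29), Etaa1 (0.03) and Ttc30b (-0.08) did not pass the test. Zfp729b was lower in 5 of 5 preparations and passed in the paired fit (log2 fold change -0.42, adjusted p = 0.048), and the others did not pass there. Etaa1 had 2.15, 3.15, 3.35, 3.51 and 3.82 CPM with TTX and 4.09, 3.23, 3.06, 2.46 and 3.59 CPM with TBOA, overlapping ranges near its 2 h Bic level of 2.5 ± 0.604 CPM. The 3 members that were higher with TBOA were Pskh1, a serine kinase (0.52 ± 0.13, adjusted p = 0.00899), Dguok, a mitochondrial deoxyguanosine kinase (0.36, adjusted p = 0.0493), and Tyw3, an enzyme of wybutosine synthesis (0.34, adjusted p = 0.0452). Pskh1 had 3.14, 3.32, 4.14, 3.51 and 3.95 CPM with TTX and 5.18, 5.66, 4.45, 4.83 and 5.90 CPM with TBOA.

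The share lower with TBOA in each role can be read against the 22.7% over the 427 members outside the zinc finger class. The 31.5% over all members includes the zinc finger members. Of 19 ribosome biogenesis genes 5 were lower, of 12 tRNA genes 3, of 18 genes of transcription and splicing 4, of 13 DNA damage genes 4 and of 16 mitochondrial genes 3. Of 10 cilium and centrosome genes 0 were lower by edgeR, DESeq2 or the paired fit. An unadjusted edgeR p under 0.05 was found for 2 of them, of which 1 was lower. The 5 ribosome biogenesis genes had log2 fold changes of -0.99 (Isg20l2), -0.72 (Twistnb), -0.54 (Exosc3), -0.43 (Wdr43) and -0.31 (Rrs1). In mRNA tailing and turnover 4 of 10 were lower (Dcp1a -0.80, Ythdf2 -0.48, Papolg -0.39 and Cstf2t -0.27). Among signal-dependent factors and kinases 3 of 12 were lower, Klf11 (-0.79), Prkaa1 (-0.39) and Sp3 (-0.36), while Creb1 had a log2 fold change of -0.12 (adjusted p = 0.563). Among receptors, channels and synaptic proteins 5 of 12 were lower, with Sstr3 (-1.02) and Inhbb (-0.69) first.

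**Figure D4:**
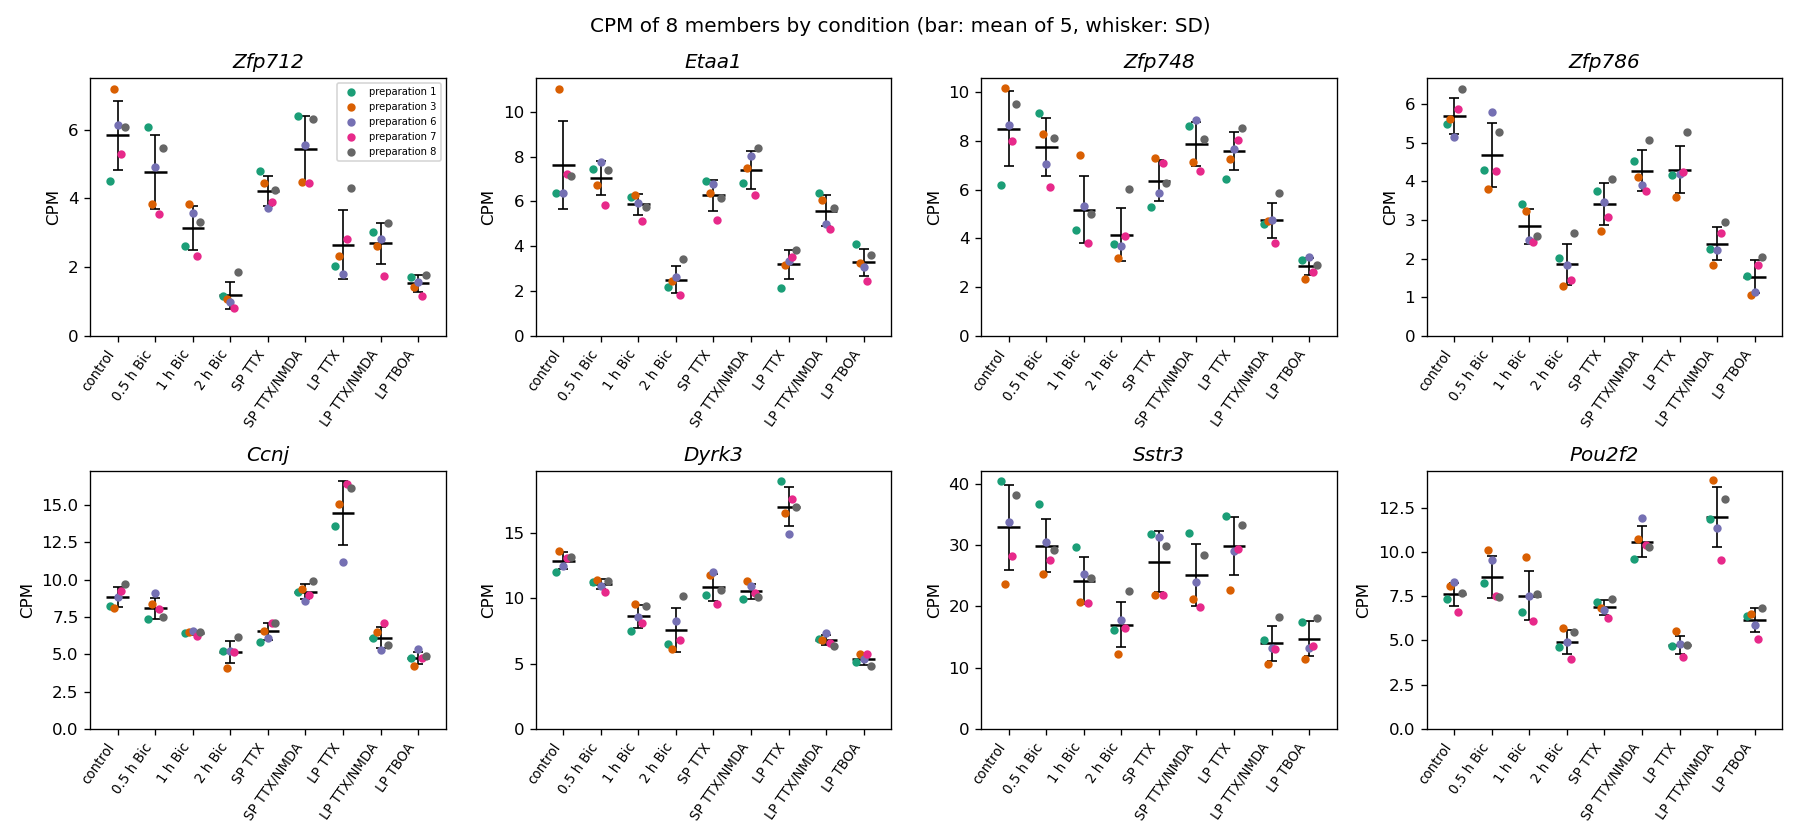
CPM (y axis, from 0) of 8 members in the 9 conditions (x axis), with points for libraries coloured by preparation, bars for means of 5 and whiskers for SD. Dyrk3 and Ccnj stand highest with LP TTX and low with LP TTX/NMDA and LP TBOA, and Pou2f2 stands highest with LP TTX/NMDA.

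The active effect in the LP went both ways over the members. With TTX/NMDA, 120 members (21%) were higher and 112 (19.6%) lower than with TTX, against 16.8% and 31.8% of the eligible genes and 11.6% and 11.8% of all 32852 genes tested. The median log2 fold change was 0.02 over the members and -0.06 over the eligible genes. The paired fit called 204 higher and 149 lower. In CPM the members' median level was 70.4% to 80.7% of the control with TTX and 79.1% to 92.8% with TTX/NMDA, but the median eligible gene also moved, from 0.938 to 1.02 of its control. With TMM scaling the members' median ratio to the control was 0.80 with TTX and 0.810 with TTX/NMDA.

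Of the zinc finger members, 49 of 144 (34%) were lower and 9 (6.25%) higher, with a median log2 fold change of -0.16. The share lower was near that of the eligible genes (31.8%) and below that of the 205 zinc finger genes that were not members, of which 85 (41.5%) were lower and 23 (11.2%) higher. Of the other members, 63 of 427 (14.8%) were lower and 111 (26%) higher, with a median of 0.09. The difference between these classes was not tested. The paired fit gave 60 lower and 19 higher zinc finger members, and 89 lower and 185 higher others. Over all 386 genes with a Zfp symbol that were tested, 113 were lower and 37 higher. In the same comparison 9 of 10 pyramidal neuron markers were lower, and their sum went from 2786 to 3407 CPM to 1801 to 2499 CPM. Of 15 astrocyte markers 11 were higher and 1 lower, with sums of 1258 to 2008 CPM and 1848 to 3428 CPM, and Gjb6 was under 0.1 CPM in the control. Also higher were 8 of 14 interneuron, 10 of 12 radial glia, 8 of 8 fibroblast, 8 of 10 dividing cell, 7 of 12 microglia, 6 of 15 oligodendrocyte lineage and 4 of 11 endothelial and mural markers, and 69 of 98 cytosolic ribosomal protein genes. The sum of mitochondrially encoded transcripts went from 7401 to 9384 CPM to 13973 to 18727 CPM. Their part in these counts was not tested.

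**Figure D5:**
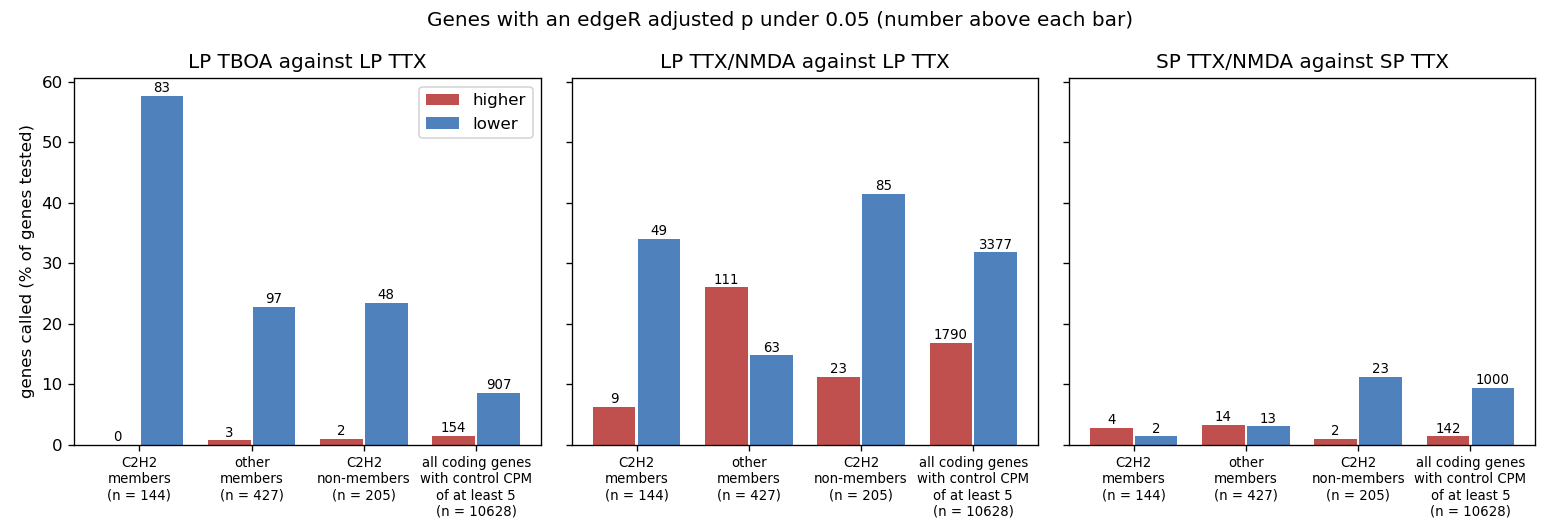
Percentage of genes called higher or lower at an edgeR adjusted p under 0.05 (y axis) in the 3 comparisons that took no part in the choice of members, for zinc finger members, other members, zinc finger genes that were not members and all eligible genes. Numbers of genes stand above the bars. The tallest bar for the members is the 83 zinc finger members that were lower with TBOA.

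Dyrk3 (log2 fold change -1.51 ± 0.10, adjusted p = 9.03e-13), Ccnj (-1.42 ± 0.11, adjusted p = 1.02e-10), Inhbb, Sstr3 and Smcr8, a regulator of autophagy, had the smallest p-values among the members that were lower in the LP active effect. Inhbb had 27.7, 32.1, 30.4, 31.2 and 31 CPM with TTX, near its control of 31.8 ± 3.04 CPM, and 16.6, 16.5, 20.9, 16.7 and 18.4 CPM with TTX/NMDA (-0.96 ± 0.08, adjusted p = 5.23e-10). Sstr3 had 34.8, 22.7, 29.1, 29.4 and 33.3 CPM with TTX and 14.6, 10.6, 13.2, 13.1 and 18.3 CPM with TTX/NMDA (-1.27 ± 0.12, adjusted p = 1.18e-09). Both genes fell without overlap, as they did with TBOA. Smcr8 had a log2 fold change of -0.72 (adjusted p = 1.44e-08).

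The members that were higher with TTX/NMDA were led by Pou2f2, a POU transcription factor, Traip, a ubiquitin ligase of replication forks, Mov10, an RNA helicase, Dguok and Srek1ip1. Pou2f2 had 4.66, 5.51, 4.77, 4.04 and 4.76 CPM with TTX and 11.9, 14, 11.4, 9.55 and 13 CPM with TTX/NMDA (1.16 ± 0.12, adjusted p = 1.01e-08), above all of its controls of 6.61 to 8.27 CPM. Traip had 14.6, 15.4, 13.6, 14.1 and 13.7 CPM with TTX and 29.8, 30.9, 23.1, 23.4 and 25.3 CPM with TTX/NMDA (0.72 ± 0.09, adjusted p = 3.22e-07). Mov10, Dguok and Srek1ip1 had log2 fold changes of 0.84, 0.69 and 0.73. Etaa1 (0.63) and Ttc30b (0.55) were also higher. Etaa1 went from the values with TTX given above to 6.38, 6.07, 4.98, 4.77 and 5.72 CPM.

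In the SP the active effect touched few members. With TTX/NMDA, 18 members (3.15%) were higher and 15 (2.63%) lower, against 1.34% and 9.41% of the eligible genes and 0.956% and 3.32% of all 32229 genes tested. The paired fit called 53 higher and 28 lower and DESeq2 38 and 26, so the number of members depended on the fit. Without preparation 1, 11 were higher and 8 lower, without preparation 3 11 and 12, without preparation 6 10 and 13, and without preparation 7 14 and 6. Of 10 pyramidal neuron markers 6 were lower, and of 14 interneuron markers 7 were higher. The sum of mitochondrially encoded transcripts was 6648 to 10212 CPM with TTX and 8998 to 13713 CPM with TTX/NMDA. Their part in these counts was not tested. The 3 smallest p-values among the higher ones were those of Col15a1, a collagen of basement membranes (log2 fold change 0.82, adjusted p = 0.000104), Pou2f2 (0.55) and Traip (0.40). Among the lower ones they were those of the orphan receptor Gpr63, the receptor phosphatase Ptprj (-0.36) and Sh3bp4 (-0.31). Gpr63 had 11.8, 12.4, 11.8, 13 and 11.7 CPM with TTX and 5.91, 7.61, 7.82, 6.60 and 8.13 CPM with TTX/NMDA (-0.82 ± 0.10, adjusted p = 1.40e-06). It was lower in the LP as well, with 7.96, 8.49, 9.50, 10.8 and 9.39 CPM and 3.84, 4.14, 4.68, 4.48 and 6.02 CPM (-1.18 ± 0.13, adjusted p = 4.37e-08). Of the 18 members higher in the SP, 12 were higher and 2 lower in the LP, and of the 15 lower in the SP, 13 were lower in the LP.

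Whether the active effect differed between the protocols was tested with the interaction term. It was lower in the LP than in the SP for 49 members (8.58%) and higher for 16 (2.80%), against 5.44% and 1.32% of the eligible genes and 1.85% and 0.722% of all 35027 genes tested. Of the 49, 31 were zinc finger members, and 0 zinc finger members were higher (7 with an unadjusted p under 0.05). The paired fit gave 106 lower and 78 higher, of which 56 and 5 were zinc finger members. DESeq2 gave 73 lower and 46 higher. Without preparation 6, 25 were lower and 13 higher, without preparation 7 31 and 9, without preparation 1 35 and 2, and without preparation 3 37 and 1. Of the 205 zinc finger genes that were not members 26 were lower and 2 higher. The difference was largest for Ccnj, with an SP log2 fold change of 0.43, an LP one of -1.42 and a difference of -1.83 ± 0.15 (adjusted p = 3.36e-11). In the SP it had 5.81, 6.53, 6.12, 7.07 and 7.12 CPM with TTX and 9.17, 9.38, 8.56, 8.93 and 9.93 CPM with TTX/NMDA, the opposite order to the LP. Dcp1a had 13.8, 14.6, 15.5, 13.8 and 14.2 CPM and 16.9, 16.6, 17.8, 15.4 and 16.7 CPM in the SP. In the LP it had 17.2, 16.6, 15.1, 18.6 and 19.5 CPM and 13.2, 12.4, 10.7, 11.1 and 13.4 CPM, a difference of -0.81 ± 0.12 (adjusted p = 1.60e-05). Zfp786 (-1.26) and Zfp748 (-1.08) also had lower active effects in the LP.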

How the data were processed

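Poly-A RNA of 45 libraries (9 conditions, 5 culture preparations) was sequenced single-end with 75 cycles from strand-specific libraries. The authors used STAR (version 2.5.4b) for alignment to GRCm38 with Ensembl release 94 and featureCounts (version 1.6.5) for strand-specific counting. Reads with more than 1 mapping place or gene were not counted. They deposited raw counts, not normalized. Tool versions are from the submitters' processing notes. CPM were computed here as counts per 1000000 counts of the library. Gene types, exons and sequences came from GENCODE M21 on the same build, which matched 54495 of 54532 gene IDs. Features were read from the coding transcript with the longest coding sequence.

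Comparisons were tested with edgeR (version 4.0.16, R 4.3.3) by its quasi-likelihood test and TMM scaling. Genes without a read in the fitted libraries were left out, and genes with Benjamini-Hochberg adjusted p-values under 0.05 were called. Fold changes are from this fit and SE from its test statistic. Values among the control, 0.5, 1 and 2 h Bic libraries chose the members and were not tested. The members and the 33 gene lists were chosen with earlier results of these data known. Genes named were the 12 with the lowest ratios, the 5 with the highest control CPM, those with the smallest p-values in each comparison (5 in each direction, 3 in the SP), up to 4 members per list and the neighbours of the limits, except for results not reported here. Other genes, the roles, the promoter motifs and the zinc finger class were chosen after their values were seen. Preparation numbers are shared by all conditions and mark a batch: libraries of the same preparation deviated together from their group means with a mean correlation over 13592 genes of 0.547 in the LP active effect, 0.413 in the SP and 0.318 for TBOA against TTX, where single pairs ranged from -0.159 to 0.698. The p-values measure the spread between preparations. Alternatives were DESeq2 (version 1.42.0), its size factors, filterByExpr, the preparation as a block, 1 fit for all conditions and leaving out each preparation.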

Additional observations from a re-analysis of the deposited data

Results flagged for a closer look

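In 162 groups of 5 libraries checked for a library far from the other 4, 3 were found, and chance alone marks about 1 in 20. The median level of the members with TBOA was 61.6% of the control in preparation 7, below the other preparations. Etaa1 had 11.0 CPM in the control of preparation 3 and Inhbb 37.9 CPM with SP TTX in preparation 6.

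The active effects of the LP and the SP differed by the interaction test for 16 of the members named by rule, given as the LP minus the SP log2 fold change. The LP effect was the lower one for Ccnj (-1.83), Dyrk3 (-1.38), Zfp786 (-1.26), Zfp748 (-1.08), Sstr3 (-1.05), Zfp128 (-0.90), Dcp1a (-0.81), Zfp11 (-0.79), Inhbb (-0.74), Yod1 (-0.70), Zfp39 (-0.68), Sprtn (-0.66) and Smcr8 (-0.44). It was the higher one for Pou2f2 (0.63), Dguok (0.49) and Pou2f1 (0.48).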

How the results depend on the processing

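The number of members moved with the rule: 349 with TMM scaling, 223 with a highest ratio of 0.60, 1527 with 0.80, and 521 to 632 without any 1 preparation. It was 741 with a minimum control level of 1 CPM and 402 with 10 CPM. The numbers called lower with TBOA than with TTX were 143 to 197 without any 1 preparation and within 1.5 times of 180 in every alternative run. Higher with TBOA were 6 members by DESeq2, 13 with the replicate block over all genes, 10 with the block and filterByExpr and 0 to 4 without any 1 preparation, against 3. In the LP active effect, 204 were higher with the block and filterByExpr, and 80 to 123 higher and 85 to 112 lower without any 1 preparation. In the SP active effect, 38 were higher and 26 lower by DESeq2, 31 higher with filterByExpr, 51 higher and 32 lower with the block, 53 higher and 28 lower with the block and filterByExpr, 7 lower in 1 fit for all conditions, and 10 to 16 higher and 6 to 19 lower without any 1 preparation. Without preparation 1 these were 11 and 8, without preparation 3 11 higher, without preparation 6 10 higher and without preparation 7 6 lower. For the difference between the protocols, 46 were higher by DESeq2, 35 with filterByExpr, 78 higher and 106 lower with the block and filterByExpr, and 1 to 13 higher and 25 to 41 lower without any 1 preparation (2 higher without preparation 1, 1 without preparation 3, 25 lower without preparation 6, 9 higher and 31 lower without preparation 7). The cause was not tested. The block over genes passing filterByExpr called 232 of the 232 members called in the LP active effect, 33 of 33 in the SP and 180 of 183 with TBOA. Of 1699 pairs of a gene result and an alternative, 1542 kept their call and direction and 157 lost the call, none with a change of sign, in the 159 gene results examined. Levels under 10 CPM in the shallower libraries rest on few reads, which limits what can be called for the less abundant zinc finger members.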
